A study of Mus musculus with 14 samples.

Results

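H3K4me3 was examined at the starts of 10 genes of the lipid droplet, the organelle in which cells store neutral fat: Bscl2, Plin2, Plin3, Pnpla2, Lipe, Abhd5, Dgat1, Dgat2, Lipa and Hilpda. The genes were chosen by name, as Bscl2 and genes whose products build, coat or empty the droplet. The paper reports Bscl2 among its top H3K4me3 increases in HFD-LSK, from these same LSK data. Its direction here is therefore not independent of its choice. The paper also lists Bscl2 among the genes with peaks raised in HFD mice in both LSK cells and granulocyte-macrophage progenitors. It compared counts at merged peaks with a model that accounts for covariates such as batch and pairing. The lists used here hold no such counts, so that model was not run. Calls and ranks are a different measure. The genes examined here were 10 of the 11706 protein-coding genes that had a peak within 1 kb of a start in at least 1 list. The paper gives the mapping method as CUT&Tag, in which an antibody guides a transposase that cuts and tags the DNA around the bound histone. The sample titles say CUT&RUN. The marks were mapped in LSK cells (Lin-Sca1+cKit+), the bone marrow fraction that holds hematopoietic stem cells and early progenitors. LSK cells were enriched magnetically and then sorted from the tibias and femurs of male C57B6/J mice, with no engineered allele named. The HFD-LSK group (n = 3) came from mice on a diet with 60% of its energy from fat and the LFD-LSK group (n = 4) from mice on a diet with 10%, each begun at 3 to 4 wk of age and kept for 16 to 20 wk. The labels do not say whether the libraries of a group came from separate mice, so p-values measure the spread between these libraries, which may be technical. The question was whether the mark at Bscl2 differs between the diets, and whether any such difference is shared by the genes that work with it.

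H3K4me3 sits on the nucleosomes around active and poised promoters and is laid down most readily where the DNA is rich in CpG, since the methyltransferase complexes bind unmethylated CpG. A lipid droplet grows from the endoplasmic reticulum. DGAT1 and DGAT2 make its triglyceride, seipin, the product of Bscl2, shapes the site where it buds, and perilipins coat it. ATGL, the product of Pnpla2, takes the first fatty acid off stored triglyceride with the help of its coactivator ABHD5, hormone-sensitive lipase, the product of Lipe, takes the next, and the acid lipase LIPA digests neutral lipid in lysosomes. HILPDA is induced by hypoxia and fatty acids and inhibits ATGL.

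Promoter sequences from RefSeq (GRCm38.p6) were found for 8 of the 10 genes, with 12 starts in all. Starts that carried the mark tended to have more CpG in the 250 bases before them. Over all coding promoters in the table, the median was 22 CpG at the 2744 starts covered by a peak in all 7 lists, 16 at the 7762 covered in some, and 3 at the 10757 covered in none. Lipe showed this within 1 gene. Its start at chr7:25395987 had 18 CpG and 6 copies of the GC box (GGGCGG, either strand), a motif that 32.7% of all promoters hold, and a peak lay over it in 3 lists. Its start at chr7:25390112 had 1 CpG and no peak over it in any list. Bscl2 had 10 CpG before its first start, 3 before the next and 2 before the last, and a peak lay over these starts in 1, 0 and 1 lists. Other starts did not follow this order. The Lipa start had 5 CpG and a peak over it in 6 lists, Plin2 had 6 CpG and Plin3 had 7, each covered in 5 lists, as was a Hilpda start with 7, while Abhd5 had 22 CpG and was covered in 3. The sequences below show the range, with each CpG in capitals and all other bases in lower case, 5′ to 3′ on the gene's strand and without stretches annotated as untranslated. The Pnpla2 stretch (chr7:141455042-141455106, plus strand, 6 CpG in 65 bases) lies before a start covered in all 7 lists, and the Abhd5 stretch (chr9:122351366-122351555, plus strand, 13 CpG in 190 bases) before a start covered in 3. The Bscl2 stretch (chr19:8840253-8840502, plus strand, 2 CpG in 250 bases) lies before its start at 8840503, and the Lipe stretch (chr7:25390113-25390351, minus strand, 1 CpG in 239 bases) before the start with no peak over it.
Pnpla2: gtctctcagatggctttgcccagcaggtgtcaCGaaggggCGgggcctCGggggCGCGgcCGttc
Abhd5: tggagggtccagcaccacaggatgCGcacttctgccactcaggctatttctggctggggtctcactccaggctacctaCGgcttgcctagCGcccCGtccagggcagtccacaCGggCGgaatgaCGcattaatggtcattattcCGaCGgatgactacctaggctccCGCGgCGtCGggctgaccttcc
Bscl2, start at 8840503: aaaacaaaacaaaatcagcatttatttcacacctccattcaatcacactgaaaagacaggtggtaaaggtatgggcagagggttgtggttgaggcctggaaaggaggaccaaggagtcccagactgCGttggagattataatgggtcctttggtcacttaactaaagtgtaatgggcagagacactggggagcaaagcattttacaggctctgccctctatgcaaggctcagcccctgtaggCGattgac
Lipe, start without a peak: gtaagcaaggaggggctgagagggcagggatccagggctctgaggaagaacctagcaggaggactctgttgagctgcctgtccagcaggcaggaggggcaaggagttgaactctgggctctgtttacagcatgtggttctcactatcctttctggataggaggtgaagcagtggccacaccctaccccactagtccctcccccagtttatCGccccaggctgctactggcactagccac

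The 7 lists held between 6921 and 13094 peaks. HFD-LSK replicate 2 was the longest and LFD-LSK replicate 4 the shortest. The lists give no read depth, and the number of fragments under each summit was recovered from the fold enrichment and the p-value. The calling limit of a list is here the lowest summit called anywhere in it, as a multiple of the library's mean coverage. It was 29.8, 34.5 and 79.7 in HFD-LSK replicates 2, 3 and 1. In LFD-LSK it was 58.1 and 59.98 in replicates 2 and 3, 98.3 in replicate 1 and 101 in replicate 4. This limit does not decide a call at every gene, because each peak is called against its local background. In HFD-LSK replicate 3, 7 fragments at Bscl2 reached a −log10 p of 10.6, and 18 at Abhd5 reached 7.66. A missing call is therefore not a measured absence of the mark. Markers of the sorted cells were read the same way. Peaks lay at 9 of 10 LSK genes (5 in all 7 lists), but none at Ly6a, which encodes the Sca-1 used in the sort. They lay at 0 of 6 adipocyte genes and 0 of 5 macrophage genes.

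The 10 genes were marked in most lists, as were most coding starts tested. A peak was called in 55 of the 70 pairs of a gene and a list. HFD-LSK replicate 2 called all 10, replicate 3 called 9 and replicate 1 called 7, while LFD-LSK replicates 1 to 4 called 6, 9, 8 and 6. Of all coding starts tested, HFD-LSK replicates 1 to 3 called 76.9%, 96.1% and 84.7%. LFD-LSK replicates 1 to 4 called 64.8%, 83.8%, 80.5% and 57.0%. Lists that called few of these genes thus called few starts in general. Of the 15 missing calls, 4 fell in the 3 HFD-LSK lists and 11 in the 4 LFD-LSK lists. Coding starts in general leaned the same way. Of those tested, 49.2% were called in a larger share of the HFD-LSK lists and 9.95% in a smaller share. In 4 of the 15 missing calls, at Bscl2 and Plin3, the calling limit of the list was above the lowest summit called at that gene elsewhere. In the other 11 it was not, and the local background at the gene, which also enters a call, is not known. Pnpla2 and Hilpda were called in all 7 lists, as were 40.8% of the coding starts tested. The other 8 genes each missed 1 to 4 lists. The map of places in each list shows that Pnpla2 lay highest over the 7 lists and Bscl2 lowest.

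**Figure D1:**
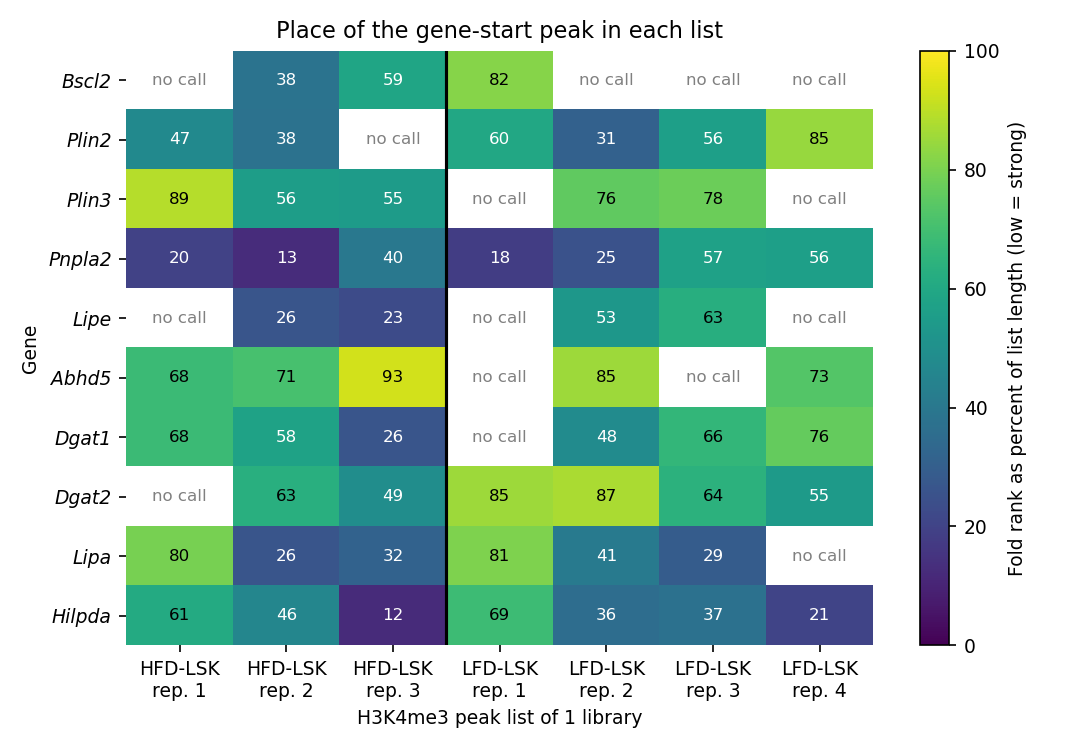
Place of the peak at each gene start within each of the 7 lists, as the fold rank in percent of the list's length (colour and number; a low percent is a strong peak). Rows are genes and columns are libraries, with HFD-LSK left of the line and LFD-LSK right of it; white cells had no call. Bscl2 had a call in 3 lists, and Pnpla2 and Hilpda in all 7.

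Bscl2 (chr19:8837467-8848683, plus strand) was marked in 2 of the 3 HFD-LSK lists and in 1 of the 4 LFD-LSK lists. In HFD-LSK replicate 2 the peak was 866 bp wide and ranked 4982.5 of 13094 by fold (16.8), where 1 is the strongest. In HFD-LSK replicate 3 it was 1084 bp wide and ranked 7045 of 11977 (fold 6.68). In LFD-LSK replicate 1 it was 349 bp wide and ranked 6081 of 7447 (fold 4.24). By place, the LFD-LSK call thus stood between the HFD-LSK calls. As a percent of the list's length the HFD-LSK calls, at 38.1% and 58.8%, stood above the LFD-LSK call at 81.7%, but its list is the shorter, and on that scale 76.8% of all coding starts tested were nearer the top in HFD-LSK. Both HFD-LSK calls were wider than the LFD-LSK call. HFD-LSK replicate 1 and LFD-LSK replicates 2, 3 and 4 had no peak within 1 kb. The calls alone could not separate the diets (Fisher's exact test, two-sided, p = 0.486, adjusted p = 1).

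To rank all 7 libraries, a list without a call was given the middle of the places left below it among the 14659 merged peaks. On this scale Bscl2 had a mean rank of 7983.5 ± 3564 (SD, n = 3) in HFD-LSK and 10498 ± 3061 (SD, n = 4) in LFD-LSK. The ranks of the diets overlapped. The difference, HFD-LSK minus LFD-LSK, was -2515 places (exact permutation test, two-sided, p = 0.343, adjusted p = 0.983), and 11.4% of the coding starts tested lay farther toward HFD-LSK. It was -510 places when only summits above the highest calling limit were kept, which left Bscl2 with 1 call in each diet, and -914 without HFD-LSK replicate 2. With a −log10 q of at least 5, the LFD-LSK call dropped out and the difference was -2670 places (exact permutation, p = 0.171).

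The 3 Bscl2 summits differed in place and height. They lay 218 bp downstream of the first start in HFD-LSK replicate 2, 222 bp in LFD-LSK replicate 1, and 808 bp in HFD-LSK replicate 3. The HFD-LSK replicate 2 summit was 157 times the mean coverage of its library (42 fragments, 95% Poisson interval 113 to 212, for counting error only), and that of LFD-LSK replicate 1 was 164 times (35 fragments, 114 to 228). Those heights, from opposite diets, differed by less than their counting error. The HFD-LSK replicate 3 summit stood on 7 fragments, at 60.4 times the mean (24.3 to 125), which was under the calling limits of HFD-LSK replicate 1 and LFD-LSK replicate 4. HFD-LSK replicate 2 also held a weaker peak over the start at 8840503 (chr19:8840171-8841057, fold 7.33, rank 10547). The gene overlaps Gng3, a G protein subunit gene on the opposite strand whose start (8839246) lay 659 bp from the HFD-LSK replicate 3 peak. Only 5 other coding starts had the same calls in the 7 lists. The nearest to Bscl2 in rank were Rbm28, Tmem74 and Apobec1, with mean absolute distances of 452, 923 and 1093 places over the 7 libraries.

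**Figure D2:**
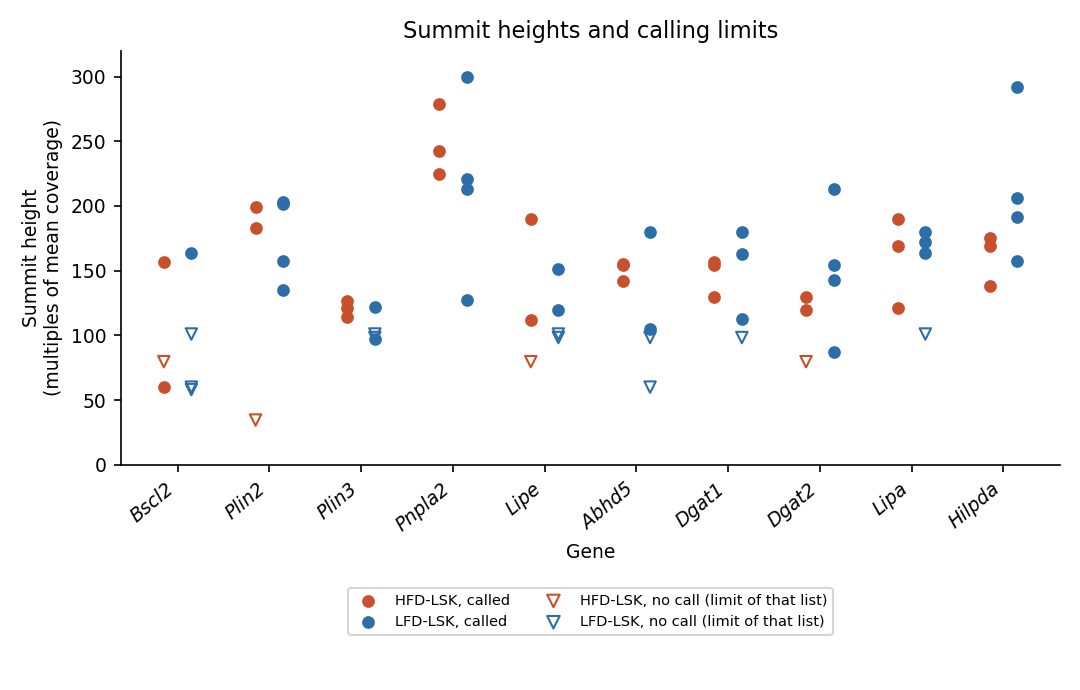
Summit height of each called peak, in multiples of the mean coverage of its library (filled circles), for the 3 HFD-LSK (red) and 4 LFD-LSK (blue) libraries. An open triangle marks a library without a call at that list's calling limit. Heights of the 2 diets overlap in range at 9 of the 10 genes; the same share over all coding starts was not computed. The exception is Bscl2, where the LFD-LSK call, at 164, is above both HFD-LSK calls, at 157 and 60.4. The HFD-LSK replicate 3 call at Bscl2 is the lowest of all, at 60.4.

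The partners of Bscl2 did not share a direction. Of the 9, the averaged rank of 6 favoured HFD-LSK and that of 3 favoured LFD-LSK. With Bscl2, 7 of 10 genes were nearer the top in HFD-LSK, against 50.6% of all coding starts tested. The median difference was -940 places over the 10 genes, -695 over the 9 partners and -36.7 over all starts. The share over all starts depended on the scale: it was 76.8% with ranks as a percent of the list's length, where 8 of the 10 genes lay on that side, and 37.4% with missing calls placed just below each list, where 6 were. No gene of the 10 reached p under 0.05 in the exact permutation test, in which 0.0286 is the smallest p that 3 against 4 libraries allow. Over all coding starts, 0.743% reached it nearer the top in HFD-LSK and 1.78% farther from it, and the lowest adjusted p was 0.974. At no gene of the 10 were the ranks of the diets without overlap. Such ranks were rare among all coding starts too, at 2.16% toward HFD-LSK and 2.4% toward LFD-LSK. By calls, 6 of the 10 genes were found proportionally more often among the HFD-LSK lists, against 49.2% of all starts, and 2 among the LFD-LSK lists, against 9.95%. No member had a peak in all 3 HFD-LSK lists and none in LFD-LSK, a pattern held by 0.29% of all starts.

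**Figure D3:**
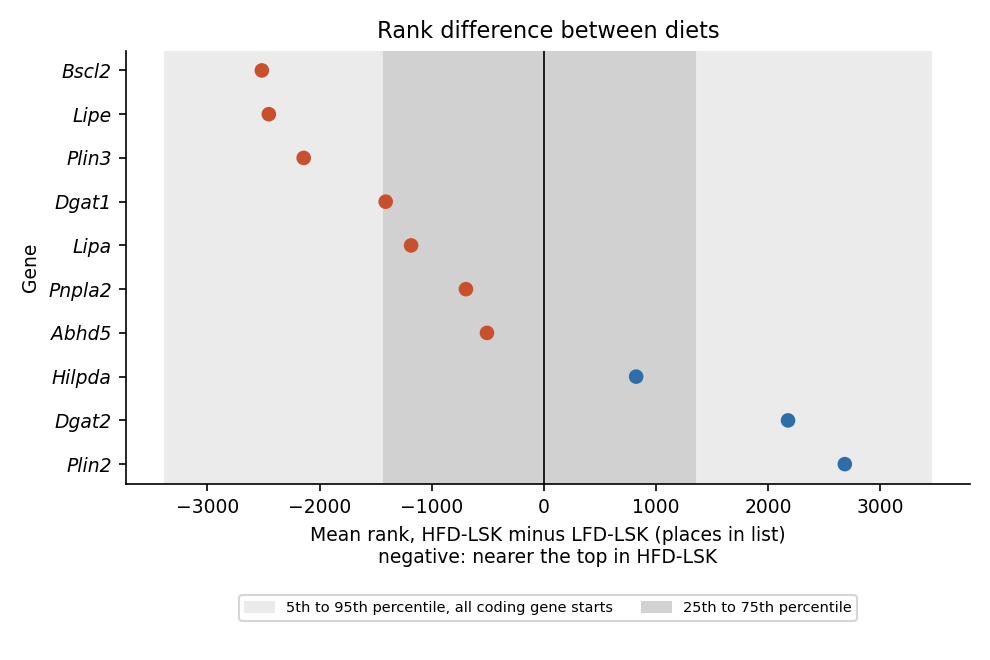
Difference in mean fold rank at each gene start, HFD-LSK (n = 3) minus LFD-LSK (n = 4), in places of the list. Points left of 0 (red) are nearer the top in HFD-LSK; the grey bands hold the middle of all 11706 coding starts tested. All 10 genes lie inside the wider band, from -3383 to 3456 places.

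The coat genes pointed in opposite directions. Plin3 (chr17), a perilipin found in most cell types that moves from the cytosol onto new droplets, was called in all 3 HFD-LSK lists at ranks of 8157.5, 7277.5 and 6559.5. In LFD-LSK it was called in replicates 2 and 3 at 8011 and 8039. Its mean rank was 7331.5 ± 800 (SD, n = 3) in HFD-LSK and 9473 ± 1676 (SD, n = 4) in LFD-LSK, a difference of -2142 places and the smallest p of the 10 genes (exact permutation, p = 0.171, adjusted p = 0.974). Its lowest called summit, 97.5 times the mean, was under the limits of both lists that missed it. Plin2 (chr4), the perilipin that coats droplets in most cells outside fat tissue, was called in all 4 LFD-LSK lists at ranks of 4457, 3274.5, 5824 and 5860, while HFD-LSK had it at 4351 in replicate 1 and 4942.5 in replicate 2. HFD-LSK replicate 3 missed it. The calling limit of that list was 34.5 and every called Plin2 summit reached at least 135 times the mean. The local background at Plin2 in that list is not known. The Plin2 difference was 2683 places toward LFD-LSK (exact permutation, p = 0.343), and it was -207 without HFD-LSK replicate 3, so it rested on that library.

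The ATGL gene and its 2 regulators differed in how strongly they were marked. Pnpla2 (chr7) ranked 1829, 1658 and 4815 in HFD-LSK and 1348.5, 2654.5, 5937 and 3909.5 in LFD-LSK. The groups overlapped, with the strongest place in LFD-LSK replicate 1, and the difference was -695 places (exact permutation, p = 0.629). Hilpda (chr6) ranked 5608.5, 6026 and 1489 in HFD-LSK and 5118, 3788, 3870.5 and 1431 in LFD-LSK, where the strongest library of each diet stood close together. Its difference was 823 places toward LFD-LSK (exact permutation, p = 0.486), and it changed sign under several settings. Abhd5 (chr9) was one of the weakest. It ranked 6278, 9270 and 11162 in HFD-LSK and 9023 and 5060.5 in LFD-LSK, where replicates 1 and 3 lacked it. The difference was -507 places (exact permutation, p = 0.886).

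The other lipase genes stood nearer the top in HFD-LSK on average, but neither passed the test. Lipe (chr7) was called in 4 lists, at ranks of 3431.5 and 2738 for HFD-LSK replicates 2 and 3, and at 5581 and 6509.5 for the LFD-LSK replicates of those numbers. Where it was called, both HFD-LSK places were thus above both LFD-LSK places. HFD-LSK replicate 1 and LFD-LSK replicates 1 and 4 had no call, so the ranks of the 7 libraries overlapped, and the difference was -2453 places (exact permutation, p = 0.4). It ran from -806 without HFD-LSK replicate 3 to -5399 without HFD-LSK replicate 1. All 4 Lipe peaks lay within 1 kb of the start of 4732471J01Rik, a long noncoding RNA gene on the opposite strand. Lipa (chr19) ranked 7319.5, 3431.5 and 3774 in HFD-LSK and 5999.5, 4309 and 3004.5 in LFD-LSK replicates 1 to 3. LFD-LSK replicate 4 had no Lipa call, and the difference of -1184 places (exact permutation, p = 0.657) turned to 404 without that library.

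The 2 genes of the last step of triglyceride synthesis differed in sign. Dgat1 (chr15), whose enzyme esterifies fatty acids in the endoplasmic reticulum, ranked 6278, 7566 and 3153.5 in HFD-LSK and 5106.5, 6868.5 and 5277.5 in LFD-LSK replicates 2 to 4. The values overlapped, and the difference was -1411 places (exact permutation, p = 0.543). It was -21.9 without HFD-LSK replicate 3 and -85.0 without LFD-LSK replicate 1. Dgat2 (chr7), whose enzyme can work on the droplet itself, ranked 8241.5 in HFD-LSK replicate 2 and 5884 in replicate 3. Its LFD-LSK ranks were 6357, 9244.5, 6636.5 and 3784.5, on either side of those values. HFD-LSK replicate 1 missed it, and the difference was 2177 places toward LFD-LSK (exact permutation, p = 0.343). It was 557 without HFD-LSK replicate 1 and 3311 without HFD-LSK replicate 3.

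Peak widths were compared with tests at the genes called in all lists. Pnpla2 peaks were 1130, 1290 and 1188 bp wide in HFD-LSK and 930, 1148, 1019 and 780 bp in LFD-LSK. All but the widest LFD-LSK peak were narrower than every HFD-LSK peak, and the means were 1203 ± 81.0 bp (SD, n = 3) and 969 ± 155 bp (SD, n = 4). The exact permutation test gave p = 0.0857 (adjusted p = 0.722). Hilpda peaks were 776, 1025 and 589 bp wide in HFD-LSK and 271, 859, 697 and 532 bp in LFD-LSK, with overlap (exact permutation, p = 0.343). Both genes were wider on average in HFD-LSK, but so were 92.5% of the coding starts called in all 7 lists, and 3.62% reached p under 0.05. Divided by the median width of the list, the Pnpla2 means were 1.32 and 1.30, and the Hilpda means 0.843 and 0.785. Over the lists that called them, 8 of the 10 genes were wider on average in HFD-LSK, and 6 after that division. Lipe and Lipa were the exceptions in base pairs.

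Summit heights of the 10 genes did not favour 1 diet. Over called lists the mean height was larger in HFD-LSK at 5 of the 10 genes. These means leave out lists without a call, and calling limits differ between lists, so weak summits enter only some means. At Bscl2 the mean was 109 from 2 HFD-LSK calls and 164 from 1 LFD-LSK call. The Pnpla2 means were 249 ± 27.7 (SD, n = 3) and 215 ± 70.4 (SD, n = 4) times the mean coverage (exact permutation, p = 0.486), and the Hilpda means 161 ± 19.9 and 212 ± 57.2 (exact permutation, p = 0.2). Among all coding starts called in every list, 33.9% were higher in HFD-LSK, and 0.126% reached p under 0.05 in that direction. That set holds Pnpla2 and Hilpda but none of the other members.

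Most of the marks lay just inside the genes. The summit was downstream of the nearest start in 45 of the 55 peaks, at a median of 202 bp and over a range of -693 to 808 bp. The same share over all coding starts was not computed, so this position is not shown to be particular to these genes. Hilpda was the most regular, with summits 34 to 73 bp downstream in all 7 lists. Plin3 and Dgat2 were marked on both sides of the start, with 4 of the 5 Plin3 summits and 5 of the 6 Dgat2 summits upstream. Summits stood on 7 to 65 fragments with a median of 26, which limits the precision of any one rank.

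**Figure D4:**
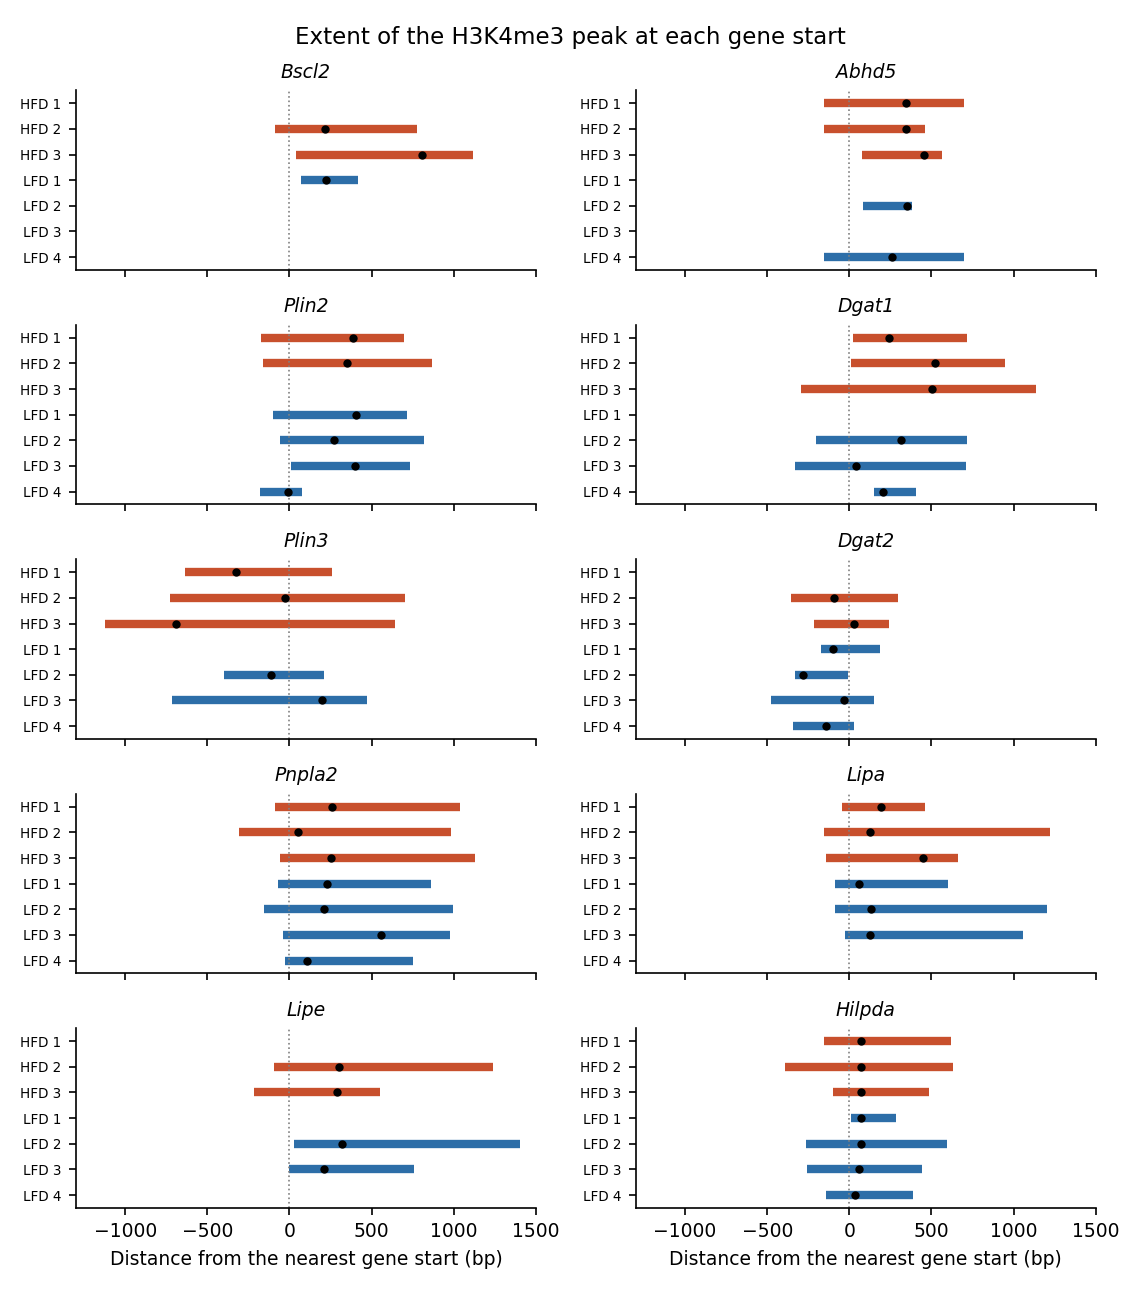
Extent of each called peak (bars, HFD-LSK red and LFD-LSK blue) and its summit (black dots) as distance in bp from the nearest start of the gene, in the direction of transcription. Each panel is 1 gene and each line 1 of the 7 libraries. Pnpla2 and Hilpda have bars on all 7 lines, and the Bscl2 bar of LFD-LSK replicate 1 is the shortest of its 3.

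Other genes of lipid droplets and triglyceride metabolism were split by rank between the diets. By calls, most of those that differed were found more often in HFD-LSK, as were most coding starts that differed. Of 44 genes listed, 43 could be placed and 25 had a call, against 54.6% of all placed coding genes. Of these 25, 12 were called in all 7 lists, against 40.8% of the coding starts tested. Of the 25, 12 were nearer the top in HFD-LSK and 13 in LFD-LSK, with a median difference of 157 places. By calls, 12 were found proportionally more often among the HFD-LSK lists and 1 among the LFD-LSK lists, against 49.2% and 9.95% of all starts. Lpl, the lipoprotein lipase gene, was one of the 12, with 3 HFD-LSK calls and 1 LFD-LSK call, and it is named here after its values were seen. The genes that define fat cell droplets, Plin1, Cidea and Cidec, had no call in any list. The strongest marks over the 7 lists were at Ddhd2, a phospholipase and triglyceride hydrolase gene, Aup1, which encodes a droplet protein, and Agpat1, an acyltransferase gene of phosphatidic acid synthesis, with mean ranks of 1973, 2540 and 2739. At 4 genes the ranks of the diets did not overlap, 1 of them nearer the top in HFD-LSK and 3 in LFD-LSK. Over all coding starts, 2.16% had such ranks toward HFD-LSK and 2.4% toward LFD-LSK. Hsd17b11, which encodes a droplet-bound dehydrogenase, ranked 6411.5, 5082.5 and 3996 in HFD-LSK and 6923, 6915 and 7453 in LFD-LSK replicates 1 to 3, with no call in replicate 4. Pcyt1a, which encodes the enzyme that sets the rate of phosphatidylcholine synthesis for growing droplets, lay the other way, at 5383, 7740 and 7708.5 in HFD-LSK and 3330, 3547.5, 1676 and 808 in LFD-LSK. Gpat3, for the first acylation of glycerol phosphate, also ranked nearer the top in LFD-LSK, by 2556 places. Soat1, the cholesterol esterification gene, had a call in 3 LFD-LSK lists and in 0 of the HFD-LSK lists (exact permutation of ranks, p = 0.0571). Its lack of overlap rested on the places given to missing calls, which follow list length. These were 11053.5 in LFD-LSK replicate 1 and 11923, 13877 and 13318.5 in HFD-LSK. Hsd17b11, Pcyt1a and Gpat3 reached the smallest p the exact permutation test allows, 0.0286, but their adjusted p was 0.974.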

How the data were processed

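H3K4me3 peak lists of 3 HFD-LSK and 4 LFD-LSK libraries (CUT&Tag in the paper, CUT&RUN in the sample titles) were analyzed, grouped by their labels. The 7 IgG libraries were not analyzed here. The submitters' processing notes name Trim Galore, Bowtie2, Picard, MACS2, bedtools, HOMER, featureCounts and GRCm38, with versions not given in the sources used here, whereas the paper's methods name GRCm39 and SEACR. The coordinates were read as GRCm38: 79.3% to 91.6% of each list's peaks lay within 1 kb of a coding gene start of RefSeq GRCm38.p6. For each peak, called on 1 library, the authors deposited a fold enrichment (a ratio, summit over local background) and −log10 p and q values. These depend on depth, so peaks were compared by rank within their own list.

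Gene starts were the 5′ end of each gene and each start in the RefSeq promoter table. Strands came from that table or, for genes it lacks, by symbol from GENCODE (97.9% of coding genes placed). The peak of highest fold within 1 kb was taken. Calls were tested by Fisher's exact test, and ranks and widths by an exact permutation test over the 35 assignments of the libraries, two-sided, with Benjamini-Hochberg adjustment over all coding starts tested. Summit fragments were recovered by inverting how MACS2 computes fold and p, which solved 100% of peaks within a relative error of 5e-05. Height is fragments over the mean coverage of the library. It, the tests on it and the alternatives built on it were added after seeing the data. Scripts used Python 3.11.15, NumPy 2.4.6, pandas 2.3.3 and SciPy 1.17.1 and were tested on simulated data. The named genes of the wider list were those with ranks that did not overlap between diets or called in every library of 1 diet alone, and the 3 of lowest mean rank. Neighbours share a member's peak, and the genes most like Bscl2 had its calls and the nearest ranks. A marker list of mature blood cells is not reported here. The members, lists and rules were chosen with earlier results of these data known.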

Additional observations from a re-analysis of the deposited data

Results flagged for a closer look

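The Dgat2 peak of LFD-LSK replicate 3 was 630 bp wide, against 361, 328 and 372 bp in LFD-LSK replicates 1, 2 and 4, and stood apart from the other libraries of its group. Of 12 sets of 4 LFD-LSK values examined, this was the 1 that did, and chance sets apart about 1 in 20.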

How the results depend on the processing

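Of 312 results recomputed under other settings, 14 changed sign, and the cause was not tested. The other 298 did not, but they include counts of genes, which have no sign to lose. Genes called more often in HFD-LSK, for example, went from 6 to 4 with an equal number of peaks per list. Windows of 500 bp and 3 kb returned the main rank differences unchanged, so the 298 are no measure of robustness. Hilpda moved to -0.819 with ranks as a percent of the list, to -325 with a −log10 q of at least 5 and to -661 where the peak had to cover the start. Abhd5 moved to 92.8 with an equal number of peaks per list and to 932 with missing calls just below the list, and Dgat1 to 1196 where the peak had to cover the start. Leaving out 1 library at a time gave -207 to 4277 for Plin2, -1719 to 130 for Pnpla2, -1947 to 805 for Abhd5, -2423 to 404 for Lipa, -3.12 to 2265 for Hilpda, -2260 to -21.9 for Dgat1, 557 to 3311 for Dgat2, -5399 to -806 for Lipe, -2619 to -1491 for Plin3 and -4485 to -914 for Bscl2. Over those same sets, 5 to 8 of the 10 genes were nearer the top in HFD-LSK. No member reached p under 0.05 under any setting, but without 1 library the smallest p allowed was 0.0667 or 0.1. Deviations from the group means correlated at 0.0778, 0.0182 and -0.00221 for libraries sharing replicate numbers 1, 2 and 3, over 4778 starts. Libraries of unlike number correlated at -0.0831 to 0.0842. These values cannot decide whether the libraries were paired, and the paper names paired samples among its covariates. With a replicate block, Bscl2 differed by -2418 places (exact sign-flip, p = 0.75, smallest possible 0.25) and Lipa by 404. With the 5′ end of the gene alone, Lipe had no call. Missing calls are limited by each list's calling limit and by local background, and the cohort of each library was not given in the sources used here.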
